A study of Mus musculus with 36 samples.

Results

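The genes described here are 36 markers of adipose tissue macrophages, measured in epididymal white adipose tissue (visceral fat attached to the epididymis) from C57BL/6J mice that were adult males. They were chosen by name: every probe of the array that is not a control and carries the symbol of a listed gene or an older synonym of it was taken. This gave 57 probes for the 36 genes. Of the genes, 35 passed a filter on signal, out of 16497 genes that passed it in the whole data set.

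The study asked how fat tissue responds to restriction of a high-fat diet. RNA of each of 36 mice was labelled with the red dye Cy5 and hybridised to 1 Agilent array together with a Cy3-labelled reference made by pooling the RNA of all animals. A value is therefore a log2 ratio of that animal over the pooled reference, called the pool below, and groups were compared by the difference of these ratios. For 3 weeks all mice first had free access to a purified diet that drew 30% of its energy from fat. The 12 mice of the group t0 were killed then. In the group HF-AL, 12 mice kept free access (ad libitum feeding) to this diet for 12 further weeks. The 12 mice of the group HF-DR received it for 12 weeks in a restricted amount, which the labels give as 70 energy percent, with a vitamin and mineral premix added. No genetic change is named in the labels. Each array is a separate animal, so the spread within a group covers animals and hybridisation together.

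Macrophages are phagocytes that derive either from cells seeded into a tissue early in life or from blood monocytes. In fat, resident-type macrophages take up debris and hormones through scavenger and lectin receptors and lie along vessels. Lipid-associated macrophages gather around dying adipocytes in obesity and carry genes for binding, engulfing and digesting lipid. The tissue was measured in bulk, and fewer macrophages in the tissue and less RNA of these genes per macrophage cannot be told apart.

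The share of probes well above background ran from 44.6% to 86.3% over the 36 arrays, and precision is limited by how many arrays each group has. Of the 35 markers tested, 31 were well above background on all 36 arrays, none was saturated, and 18 had 1 probe only. The general macrophage genes Cd68, Adgre1 and Csf1r were among the 31. Transcripts of the male tract stood high on some arrays. The mean log2 ratio of 6 such genes (Pate4 and the seminal vesicle genes Svs2, Svs3a, Svs4, Svs5 and Svs6) reached 5.84 for HF-DR 8 and 5.37 for HF-DR 9. It was -0.38 for HF-DR 7, -2.81 for t0 6 and no more than -3.96 for any other array. Adam7, an epididymal gene, read 1.17, 2.48 and 3.01 on HF-AL 5, 7 and 9 and at most 0.97 elsewhere, whereas Crisp1, Defb22 and Lcn5, which are also epididymal, read at most 0.05 on these 3 arrays. Lcn5 read 2.95 on t0 11, where Adam7 read 0.24 and Crisp1 and Defb22 read 0.03 and -0.02, and this array is not among the 7 named above. The 7 arrays had been listed in an earlier analysis of the data, and results are given with and without them where a call depends on them. HF-DR 8 gave the lowest HF-DR value of 28 of the 35 markers.

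Restricted mice had lower expression of most macrophage markers than mice fed ad libitum. A gene was called changed when its adjusted p in limma, over all 16497 genes, was under 0.05. Between HF-DR and HF-AL, 27 of the 35 markers were lower, 1 was higher and 7 were not called. Over all genes 64.7% were called in this comparison, 35.9% lower and 28.8% higher. The median difference of the markers was -0.60 on the log2 scale, and that of all genes was -0.04. For 14 markers every HF-DR animal lay below every HF-AL animal, which was the case for 8.18% of all genes, and no marker lay wholly above, as 6.27% of all genes did. Between HF-DR and t0, 27 of the 35 markers were lower and none higher, with a median of -0.73 beside -0.01 for all genes. In that comparison 61.8% of all genes were called, 33% lower and 28.8% higher. For 13 markers the HF-DR animals lay wholly below the t0 animals, against 9.06% of all genes, and none lay wholly above, against 7.54%. Both comparisons use the same HF-DR animals.

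Between HF-AL and t0 none of the 35 markers was called by limma, where 0.697% of all genes were, 0.23% lower and 0.467% higher. No marker had groups without overlap, against 0.0182% of all genes wholly lower and 0.0242% wholly higher. At an unadjusted p under 0.05 in limma, for which no share of all genes was computed, 5 markers were lower and 0 higher. These were Lyz2 (-0.31 ± 0.13), Cd84 (-0.26 ± 0.09), Gpnmb (-0.24 ± 0.10), Itgax (-0.30 ± 0.09) and Clec7a (-0.33 ± 0.11). The differences of all 35 ran from -0.51 for Marco to 0.42 for Spp1, 29 of 35 were below 0, and the median was -0.11. The median of all genes was 0.01. The interval of Itgax was -0.48 to -0.11, and its adjusted p was 0.112. Itgax passed with array weights (-0.32, adjusted p = 0.0294) and when t0 11 was left out beside the 7 arrays, an alternative chosen after seeing the data (-0.39, adjusted p = 0.0328).

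**Figure D1:**
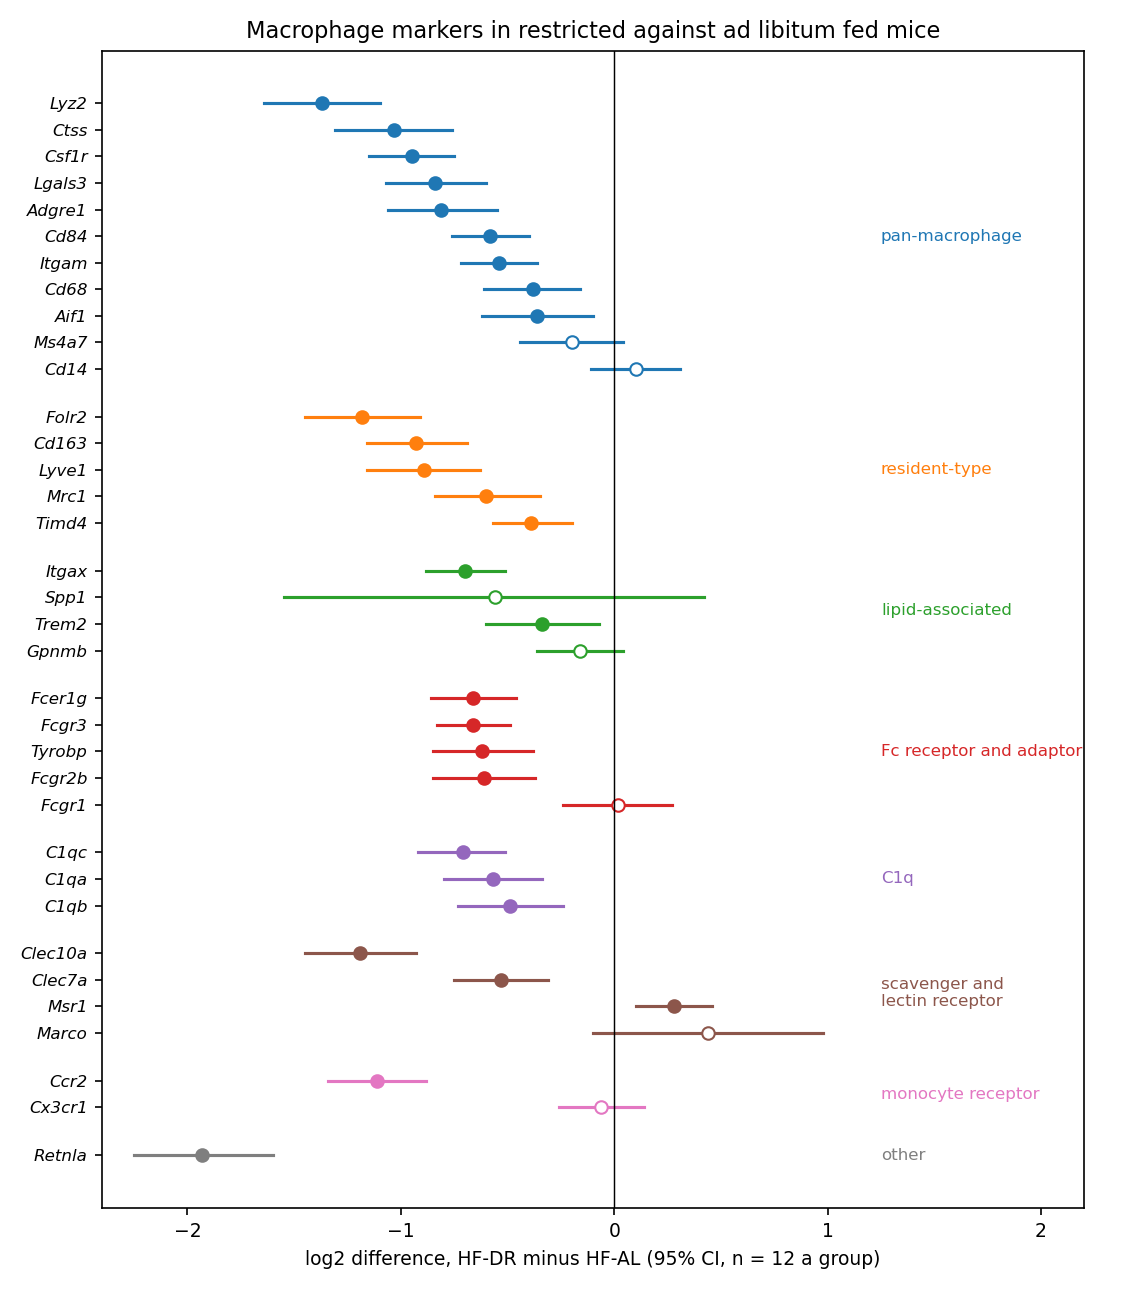
Log2 difference of each macrophage marker between HF-DR and HF-AL with its 95% confidence interval, grouped by role (n = 12 animals a group, 11 where a spot was left out). Filled points passed an adjusted p of 0.05 in limma and open points did not. Retnla lies lowest at -1.93, and Msr1 is the only filled point above 0.

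Retnla, which encodes the secreted protein RELM-alpha made by alternatively activated macrophages, was the most changed marker. Its probe lies on chr16 from 48763960 to 48764019 (mm8). Its log2 ratio was lowest at -2.67, with a median of -1.77 and a highest value of -1.18 in HF-DR. In HF-AL it ran from -0.71 over a median of 0.08 to 0.67, and in t0 from -0.25 over 0.18 to 0.81. Every restricted animal lay below every animal of both other groups. Retnla was 3.80-fold lower in HF-DR than in HF-AL (log2 difference -1.93 ± 0.16 SE, limma, adjusted p = 5.62e-13) and 4.04-fold lower than in t0 (-2.01 ± 0.16, adjusted p = 1.68e-13). A second probe, which overlaps the first in sequence, gave -1.87 ± 0.15 against HF-AL. The promoter window of Retnla from RefSeq (GRCm38.p6, chr16:48842359-48842658, plus strand) is printed because this gene changed most, with GAGGAA, the core letters bound by the myeloid factor PU.1, in capitals as read on the opposite strand.
Retnla: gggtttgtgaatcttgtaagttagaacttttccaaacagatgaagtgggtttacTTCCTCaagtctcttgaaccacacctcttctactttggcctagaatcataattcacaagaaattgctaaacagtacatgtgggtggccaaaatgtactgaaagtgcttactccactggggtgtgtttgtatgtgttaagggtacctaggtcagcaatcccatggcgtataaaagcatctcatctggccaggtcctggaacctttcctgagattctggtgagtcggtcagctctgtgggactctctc

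The resident-type genes were all lower in HF-DR. Against HF-AL, where 35.9% of all genes were lower, 5 of 5 were called lower with a median of -0.89. Against t0, where 33% of all genes were lower, 5 of 5 were called lower with a median of -0.87. Folr2, the folate receptor beta that marks perivascular resident macrophages, ran from -1.82 over a median of -1.04 to -0.49 in HF-DR. It ran from -0.20 over 0.14 to 0.55 in HF-AL and from -0.34 over 0.21 to 0.62 in t0. The restricted animals did not overlap with those of either other group. The difference was -1.18 ± 0.13 (limma, adjusted p = 1.14e-09) against HF-AL and -1.21 ± 0.13 (adjusted p = 5.70e-10) against t0. The Folr2 probe lies on chr7 from 101714137 to 101714078 (mm8, reverse strand).

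Cd163, the scavenger receptor for haemoglobin bound to haptoglobin, ran from -1.62 over -0.99 to -0.53 in HF-DR and from -0.41 over -0.08 to 0.15 in HF-AL. It ran from -0.61 over -0.11 to 0.32 in t0. The HF-DR animals lay wholly below HF-AL, while the highest HF-DR animal overlapped the lowest of t0. The difference was -0.93 ± 0.12 against HF-AL (limma, adjusted p = 1.13e-08) and -0.89 ± 0.12 against t0. Lyve1, a hyaluronan receptor shared by perivascular macrophages and lymphatic endothelium, differed by -0.89 ± 0.13 against HF-AL (adjusted p = 2.56e-07), with values of -1.59 to -0.14 in HF-DR and 0.00 to 0.80 in HF-AL. The brighter of its 2 probes gave this value, and the other gave -0.30 ± 0.14, which did not pass (adjusted p = 0.0530).

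Mrc1, the mannose receptor that takes up glycoproteins, has its probe on chr2 from 14249431 to 14249491 (mm8). It ran from -1.22 over -0.30 to 0.23 in HF-DR. It ran from 0.02 over 0.18 to 0.68 in HF-AL and from -0.05 over 0.11 to 0.68 in t0. HF-DR overlapped both other groups, and HF-DR 8 and 9 lay lowest. The difference was -0.60 ± 0.12 (limma, adjusted p = 6.19e-05) against HF-AL and -0.66 ± 0.12 against t0, and without the 7 arrays with tract transcripts it was -0.45. Timd4, a receptor for phosphatidylserine on dying cells and a mark of long-lived resident macrophages, had the least difference of the 5, at -0.39 ± 0.09 (adjusted p = 0.000403). It was well above background on 11 of 12 HF-DR arrays and on all others. The Mrc1 window (GRCm38.p6, chr2:14229164-14229463, plus strand) is printed since it holds the letters GAGGAA 3 times, all on the opposite strand and in capitals.
Mrc1: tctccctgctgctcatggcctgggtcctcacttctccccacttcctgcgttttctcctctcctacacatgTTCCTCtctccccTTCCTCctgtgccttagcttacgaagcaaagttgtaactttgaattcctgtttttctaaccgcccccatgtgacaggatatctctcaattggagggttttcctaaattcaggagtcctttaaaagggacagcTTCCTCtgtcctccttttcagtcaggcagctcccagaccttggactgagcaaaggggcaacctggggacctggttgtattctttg

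The lipid-associated genes moved less evenly. Against HF-AL 2 of 4 were called lower, with a median of -0.45, where 35.9% of all genes were lower. Against t0 3 of 4 were called lower, with a median of -0.46, where 33% of all genes were. The median against HF-AL was -0.18 without the 7 arrays, -0.20 with array weights and -0.28 in the authors' deposited log2 levels, where Spp1 has no value here. Itgax, the integrin CD11c shared with dendritic cells, had the clearest difference. It ran from -1.08 over -0.74 to -0.44 in HF-DR, from -0.42 over 0.00 to 0.31 in HF-AL and from -0.37 over 0.26 to 0.78 in t0. HF-DR did not overlap with either group. The difference was -0.70 ± 0.09 against HF-AL (limma, adjusted p = 2.94e-08) and -0.99 ± 0.09 against t0 (adjusted p = 8.15e-12). A second Itgax probe was well above background on 1, 1 and 3 arrays of t0, HF-AL and HF-DR and was not tested.

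Trem2, a lipid-sensing receptor that signals through Tyrobp, has its probe on chr17 from 47817764 to 47817823 (mm8). It ran from -1.44 over -0.29 to -0.06 in HF-DR. In HF-AL it ran from -0.46 over 0.00 to 0.40 and in t0 from -0.35 over 0.15 to 0.84. The groups overlapped, and 1 array, HF-DR 8, lay far below the rest. Trem2 was lower than in HF-AL by limma (-0.34 ± 0.13, adjusted p = 0.0222), but not without the arrays with tract transcripts (-0.24, adjusted p = 0.108) nor by its second probe (-0.12 ± 0.10, adjusted p = 0.264), by the mean of both (-0.23) or in the authors' deposited log2 levels (-0.28). Against t0 it differed by -0.52 ± 0.13 (adjusted p = 0.000702). Its window (GRCm38.p6, chr17:48346151-48346450, plus strand) is shown beside those of Retnla and Mrc1 with its single GAGGAA, again on the opposite strand.
Trem2: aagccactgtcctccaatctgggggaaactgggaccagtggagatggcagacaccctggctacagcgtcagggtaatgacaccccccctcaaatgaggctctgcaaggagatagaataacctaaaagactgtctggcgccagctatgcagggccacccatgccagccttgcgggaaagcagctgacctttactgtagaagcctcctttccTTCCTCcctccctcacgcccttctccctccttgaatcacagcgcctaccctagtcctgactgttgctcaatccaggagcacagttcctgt

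Gpnmb is a membrane glycoprotein of lysosome-rich macrophages, and its probe lies on chr6 from 48985973 to 48986032 (mm8). It ran from -0.53 over -0.21 to 0.19 in HF-DR and from -0.26 over -0.02 to 0.32 in HF-AL. In t0 it ran from -0.37 over 0.26 to 0.79. The 3 groups overlapped broadly. It was not called between HF-DR and HF-AL (-0.16 ± 0.10, 95% interval -0.36 to 0.04, limma, adjusted p = 0.159), and it was lower in HF-DR than in t0 (-0.40 ± 0.10, adjusted p = 0.000622). With the slide as a block the former difference was -0.39 and passed (adjusted p = 0.0391). For comparison, the intervals of the resident-type genes Folr2 and Timd4 against HF-AL were -1.45 to -0.91 and -0.57 to -0.20. That of the lipid-associated gene Itgax was -0.88 to -0.51, so genes of the lists overlapped in their differences. Whether the resident-type genes fell by more than the lipid-associated genes was not tested as a difference of lists.

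Spp1, the secreted matrix protein osteopontin, had the widest spread of the markers within HF-AL. It ran from -1.44 over -1.10 to 3.39 there, from -1.52 over -0.93 to 0.87 in HF-DR and from -1.06 over -0.66 to 1.18 in t0. The values 2.32, 3.39 and 3.29 came from HF-AL 5, 7 and 9, the arrays on which Adam7 was high, and the other 9 HF-AL arrays lay between -1.44 and -0.47. The highest t0 value was that of t0 2, where Adam7 read 0.97. Spp1 was not called in any comparison, and its difference between HF-DR and HF-AL was -0.56 ± 0.48 (limma, adjusted p = 0.312). Without the 7 arrays it was 0.35, so its direction is not settled. The part of tract tissue in the Spp1 values was not tested.

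**Figure D2:**
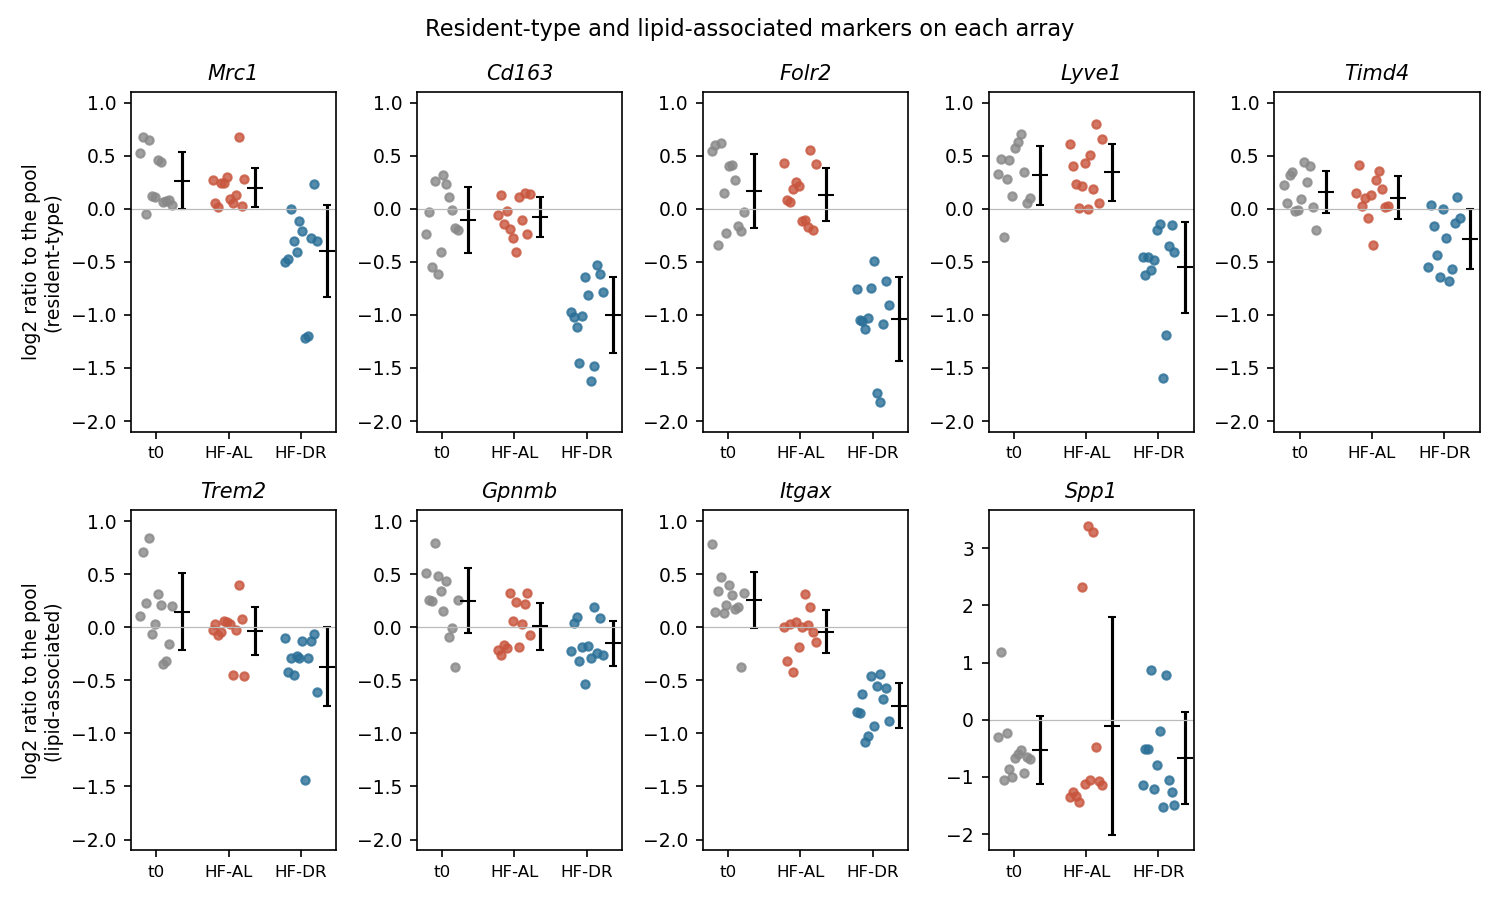
Log2 ratio to the pool of the 5 resident-type genes (top) and the 4 lipid-associated genes (bottom) on each of 12 arrays a group, with the mean and SD in black. The vertical axis of Spp1 is wider than those of the other genes. Folr2 and Itgax in HF-DR lie wholly below the other groups, and 3 HF-AL arrays stand apart for Spp1.

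On each array the mean of the 5 resident-type genes was set beside that of Trem2, Gpnmb and Itgax, leaving out Spp1 after its values were seen. The resident-type mean was -0.66 ± 0.34 (SD, n = 12) in HF-DR, 0.14 ± 0.17 in HF-AL and 0.16 ± 0.22 in t0. The mean of the 3 lipid-associated genes was -0.42 ± 0.17, -0.02 ± 0.16 and 0.22 ± 0.26 in the same order. The resident-type mean minus the other was -0.24 ± 0.33 in HF-DR, 0.16 ± 0.24 in HF-AL and -0.06 ± 0.26 in t0. The groups overlapped in this measure, with a lowest value of -1.07 and a highest of 0.08 in HF-DR and of -0.25 and 0.52 in HF-AL. With Spp1 among the lipid-associated genes the difference of means was -0.17 ± 0.44 in HF-DR, 0.18 ± 0.63 in HF-AL and 0.13 ± 0.23 in t0, so its sign in t0 depends on Spp1. No test was run on this score.

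Within groups, 12 correlations over 4 pairs of these genes were computed, and 2 passed the adjustment. Mrc1 and Cd163 correlated in HF-DR (n = 12, Pearson r = 0.74, permutation p = 0.00570, adjusted 0.0342; Spearman rho = 0.66, permutation p = 0.0236, adjusted 0.143). Mrc1 and Trem2 correlated in t0 (n = 12, r = 0.75, permutation p = 0.00412, adjusted 0.0342; rho = 0.55, permutation p = 0.0714, adjusted 0.246). Neither rank correlation passed. Without the 2 arrays farthest from the median of Mrc1, r was 0.34 and 0.43, and neither relation passed. Leaving out those arrays also narrows the range of Mrc1, which can lower r by itself. It therefore cannot show whether the relations rest on those arrays alone. Without the 7 arrays, an alternative chosen after seeing the data, r was 0.34 for Mrc1 and Cd163 in HF-DR (n = 9, permutation p adjusted 0.513) and 0.75 for Mrc1 and Trem2 in t0 (n = 11, permutation p adjusted 0.101). The other 10 ran from r = -0.05 to 0.64 with adjusted permutation p of at least 0.0932 (n = 12 each). The p-values are two-sided. Each slide held at most 1 array of a group, so no value within slides could be had.

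**Figure D3:**
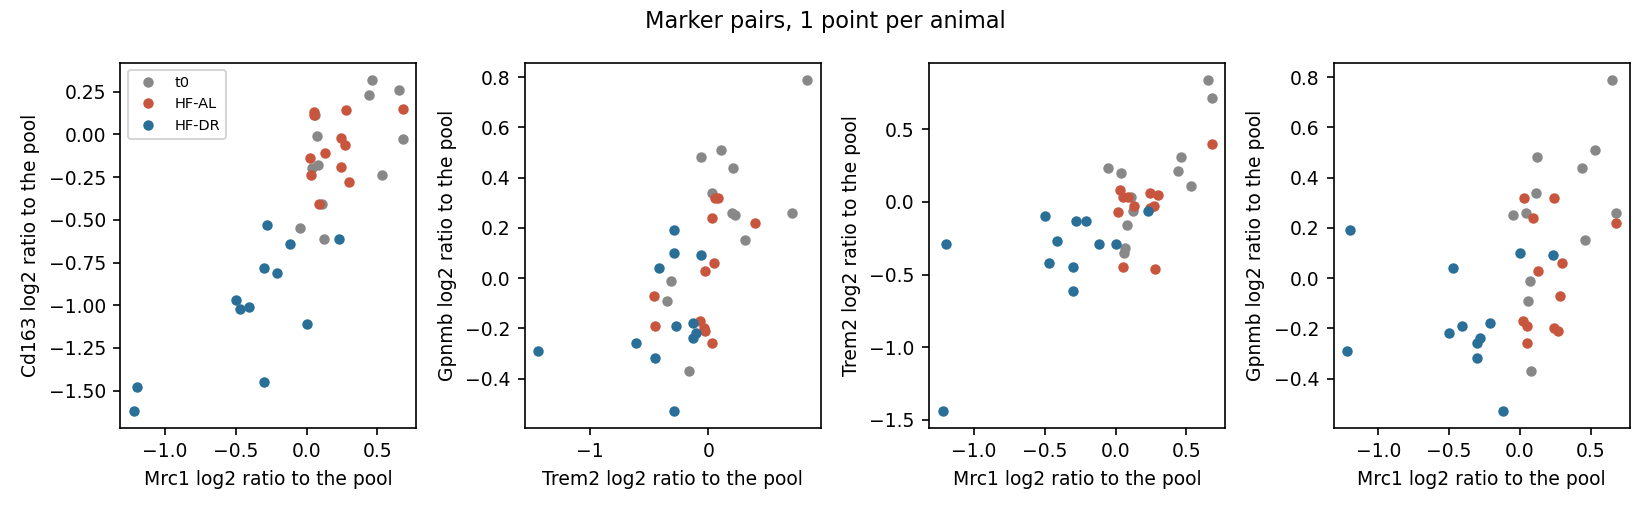
Log2 ratios to the pool of 4 pairs of markers, 1 point for each animal, coloured by group. In the pair of Mrc1 and Cd163 2 HF-DR animals lie far to the lower left, and r in HF-DR falls from 0.74 to 0.34 without the 2 animals farthest from the median of Mrc1.

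The general macrophage genes fell together in most cases. Of 11 such genes, 9 were lower in HF-DR than in HF-AL and 8 were lower than in t0, with medians of -0.58 and -0.84. Over all genes 35.9% and 33% were lower in these comparisons. Lyz2, the lysozyme of macrophages and neutrophils, ran from -1.79 over -0.91 to -0.48 in HF-DR and from 0.03 over 0.34 to 0.67 in HF-AL, with no overlap. It was 2.58-fold lower (log2 difference -1.37 ± 0.13, limma, adjusted p = 3.64e-11). Its second probe gave -0.51 ± 0.12. A probe labelled Lyz carries the accession of the paralog Lyz1 and gave -1.16 ± 0.12, and it was kept apart because these near-identical genes may share signal.

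Ctss, the lysosomal protease cathepsin S, differed by -1.03 ± 0.14 (limma, adjusted p = 4.69e-08, n = 11 a group, since 1 spot in each group was left out). Csf1r, the receptor for the growth factor CSF1 on which most macrophages depend, differed by -0.95 ± 0.10 (adjusted p = 1.15e-10), with values of -1.69 to -0.54 in HF-DR and -0.34 to 0.38 in HF-AL. The 2 other Csf1r probes gave -0.16 and -0.35. Lgals3, the galactose-binding lectin galectin-3, differed by -0.84 ± 0.12. Adgre1, the F4/80 antigen, differed by -0.81 ± 0.13 and was called Emr1 on the array. The receptor Cd84 differed by -0.58 ± 0.09 and the integrin subunit Itgam, CD11b, by -0.54 ± 0.09. Their adjusted p in limma was at most 2.02e-06. HF-DR lay wholly below HF-AL for Ctss, Csf1r, Lgals3 and Cd84, and overlapped for Adgre1 and Itgam.

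Cd68, a glycoprotein of late endosomes and lysosomes, fell by less. It ran from -1.28 over -0.41 to -0.20 in HF-DR and from -0.44 over -0.13 to 0.34 in HF-AL, and the groups overlapped (-0.38 ± 0.11, limma, adjusted p = 0.00316). Aif1, the calcium-binding protein IBA1, was lower as well (-0.36 ± 0.13, adjusted p = 0.0140), but not without the arrays with tract transcripts (-0.15, adjusted p = 0.290) or with array weights (-0.22, adjusted p = 0.0750). Cd14, a co-receptor for lipopolysaccharide, was not called (0.10 ± 0.10, interval -0.11 to 0.31), nor was Ms4a7, a tetraspan membrane protein (-0.20 ± 0.12, adjusted p = 0.141).

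The receptors that bind antibody tails and their adaptors had 4 of 5 members lower, with a median of -0.62 against HF-AL and -0.73 against t0. The share of all genes that were lower was 35.9% and 33%. Tyrobp, the adaptor DAP12, ran from -1.46 over -0.49 to -0.16 in HF-DR and from -0.21 over 0.02 to 0.51 in HF-AL, with a difference of -0.62 ± 0.11 (limma, adjusted p = 1.51e-05). Fcer1g, the common gamma chain, differed by -0.66 ± 0.10, the activating receptor Fcgr3 by -0.66 ± 0.08 and the inhibitory receptor Fcgr2b by -0.61 ± 0.12. Other probes gave smaller differences, -0.51 for Fcer1g, -0.31 for Fcgr3 and -0.45 and -0.35 for Fcgr2b. Fcgr3 rests on 11 HF-AL animals. Fcgr1, the high-affinity receptor CD64, stood apart from these. It ran from -0.60 over 0.16 to 0.64 in HF-DR and from -0.36 over 0.02 to 0.55 in HF-AL, and its difference was 0.02 ± 0.12 (interval -0.24 to 0.27, adjusted p = 0.919). Its second probe read higher in HF-DR than in t0 (0.30 ± 0.10, adjusted p = 0.00637), which the first did not (0.18 ± 0.12, adjusted p = 0.209).

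The 3 chains of C1q, the complement protein that tissue macrophages secrete, were all lower in HF-DR than in HF-AL. In that comparison 35.9% of all genes were lower, and the 3 chains are coded side by side on chr4. C1qc ran from -1.51 over -0.72 to -0.42 in HF-DR and from -0.19 over -0.07 to 0.24 in HF-AL without overlap, with a difference of -0.71 ± 0.10 (limma, adjusted p = 1.30e-07). C1qa differed by -0.57 ± 0.11, with 11 HF-AL animals, and C1qb by -0.49 ± 0.12. The 3 probes lie between 136152739 and 136168629 (mm8).

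The scavenger and lectin receptors went in different directions. Clec10a, the galactose-binding lectin MGL1, ran from -1.96 over -0.78 to -0.33 in HF-DR and from -0.11 over 0.28 to 0.48 in HF-AL, with no overlap, and was 2.28-fold lower (-1.19 ± 0.13, limma, adjusted p = 3.46e-10). Clec7a, the beta-glucan receptor dectin-1, differed by -0.53 ± 0.11 (adjusted p = 6.00e-05). Msr1, the class A scavenger receptor for modified lipoproteins, was the only marker that was higher. It ran from -0.41 over 0.34 to 0.55 in HF-DR and from -0.35 over -0.03 to 0.28 in HF-AL, and the groups overlapped. The difference was 0.28 ± 0.09 (adjusted p = 0.00544), 1 of its 2 other probes did not pass (0.18 ± 0.09, adjusted p = 0.0559), and the call was lost in both alternatives that treat specks on the arrays otherwise, at 0.19 and 0.20.

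Marco, a scavenger receptor for bacteria and particles, ran from -1.58 over 0.24 to 1.5 in HF-DR, a wider spread than in HF-AL, where it ran from -0.75 over -0.39 to 0.26. The 2 lowest HF-DR values were those of HF-DR 9 and 8. The difference was 0.44 ± 0.27 (limma, adjusted p = 0.148). With the slide as a block it was 1.03 (adjusted p = 0.00237), and without the arrays with tract transcripts it was 0.67 (adjusted p = 0.0242). On the 3 slides that held both groups it was 0.47, 1.07 and 2.04.

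Of the receptors of monocytes, Ccr2, through which monocytes leave the bone marrow towards CCL2, ran from -1.52 over -0.92 to -0.48 in HF-DR and from -0.32 over 0.15 to 0.52 in HF-AL, with no overlap (-1.11 ± 0.11, limma, adjusted p = 1.02e-10). Cx3cr1, the fractalkine receptor, was dim. It was well above background on 6 t0, 11 HF-AL and 6 HF-DR arrays, and so passed the filter through HF-AL. Its difference was -0.06 ± 0.10 (adjusted p = 0.610), and its 3 highest HF-AL values, 0.64, 0.51 and 0.52, came from HF-AL 5, 7 and 9. Atp6v0d2, a subunit of the lysosomal proton pump, was well above background on 1 t0, 1 HF-AL and 0 HF-DR arrays and was not tested.

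Between HF-DR and t0, Lyz2 differed by -1.68 ± 0.13, Ctss by -1.25 ± 0.14, Clec10a by -1.20 ± 0.13, Ccr2 by -1.15 ± 0.11, Csf1r by -1.06 ± 0.10 and Lgals3 by -1.03 ± 0.12 (limma, adjusted p at most 1.22e-09). The 3 C1q chains differed by -0.75 to -0.64. The 8 markers not called against t0 were Aif1 (-0.24 ± 0.13), Cd14 (-0.06 ± 0.10), Ms4a7 (-0.22 ± 0.12), Spp1 (-0.14 ± 0.48), Fcgr1 (0.18 ± 0.12), Msr1 (0.17 ± 0.09), Marco (-0.07 ± 0.27) and Cx3cr1 (0.10 ± 0.10). All but Aif1 and Msr1 were also not called against HF-AL, and Gpnmb was called against t0 only. Whether the differences of Gpnmb against HF-AL and against t0 were unequal is the HF-AL against t0 contrast, which it did not pass (adjusted p = 0.262).

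**Figure D4:**
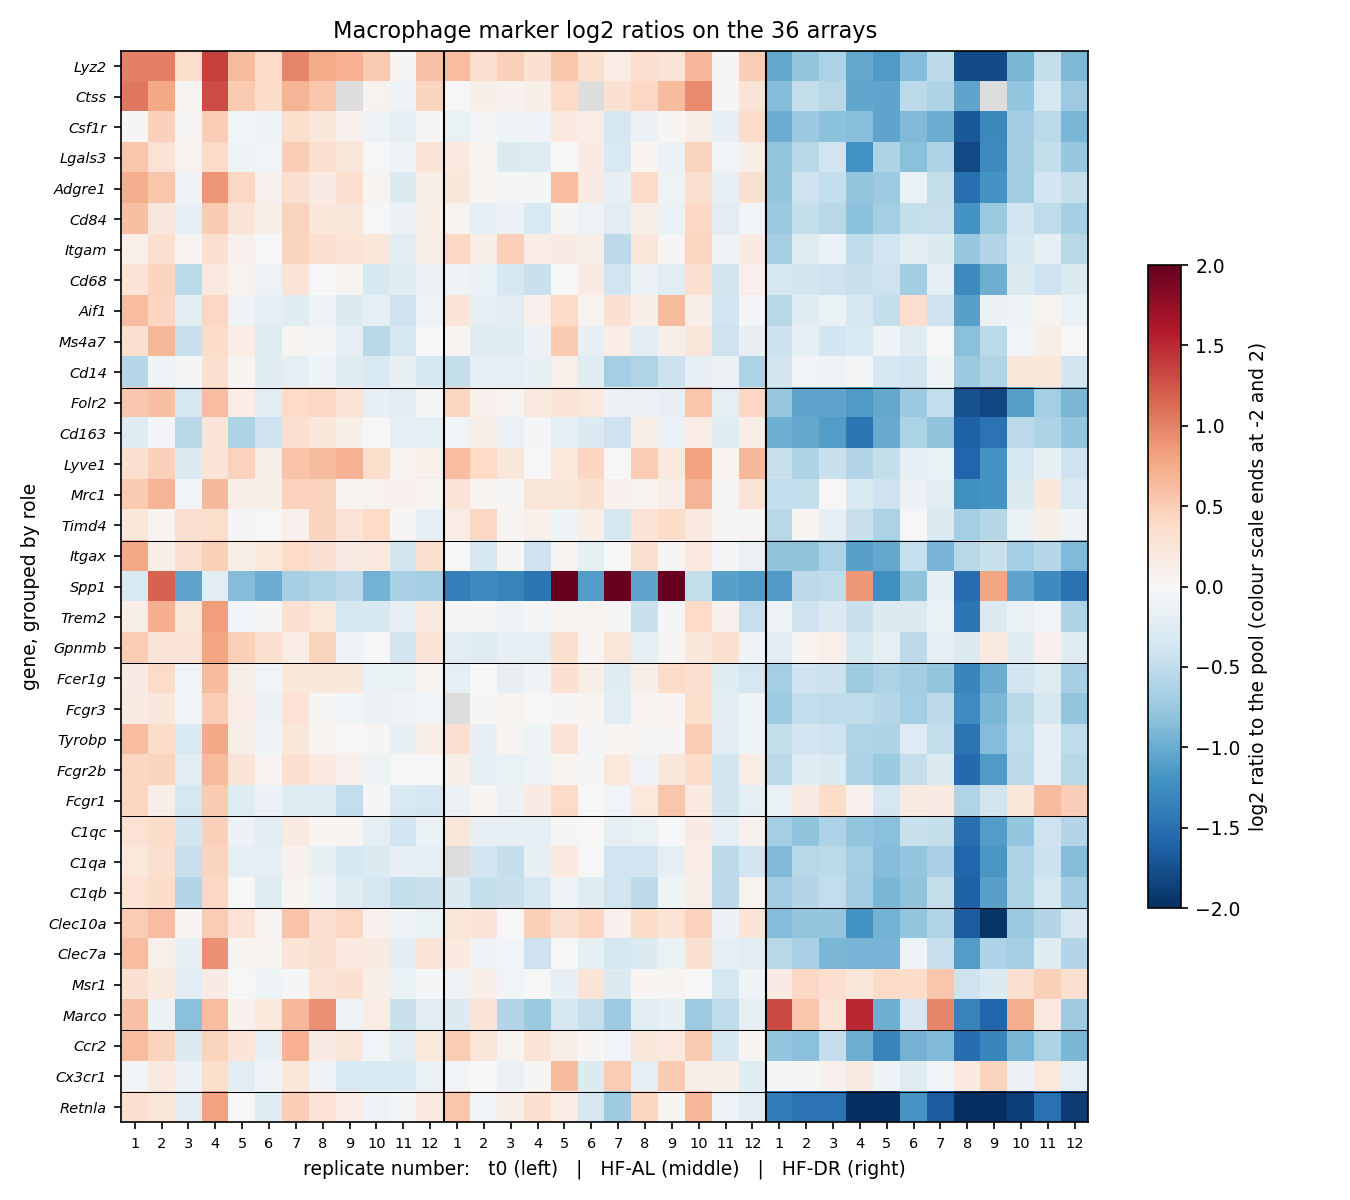
Log2 ratio to the pool of the 35 markers tested (rows, grouped by role) on the 36 arrays (columns, by group and replicate number), with values beyond -2 and 2 at the end of the colour scale and left-out spots in grey. Most HF-DR columns are blue, HF-DR 8 is the darkest for 28 of 35 genes, and Spp1 is high on HF-AL 5, 7 and 9.

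Leaving out the 7 arrays with tract transcripts gave 25 markers lower and 2 higher between HF-DR and HF-AL. Of 16496 genes, 5951 were lower and 5068 higher in that setting. The resident-type median was then -0.82. Only 3 slides held both an HF-DR and an HF-AL array, and 22 of 35 markers were lower in HF-DR on all 3. Against t0, 23 were lower on all 6 shared slides. The share of all genes lower on every shared slide was not computed, so these counts of markers have no base rate beside them.

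Other gene lists were counted between HF-DR and HF-AL, where 35.9% of all genes were lower and 28.8% higher, and no list was tested as a set. Only genes that passed the filter on signal were counted in each list. Of 15 transcription factors of macrophages, 8 were lower and 4 higher in HF-DR than in HF-AL. Stat6, which transmits the signal of interleukin-4, differed by -0.86 ± 0.06 (limma, adjusted p = 6.59e-15). Tfe3, a factor of lysosomal genes, was higher (0.29 ± 0.05, adjusted p = 3.42e-06). Of 13 growth factors of macrophages and attractants of monocytes, 6 were lower and 3 higher. The chemokine Ccl9 differed by -1.20 ± 0.12 and Ccl12 by 1.35 ± 0.16 (adjusted p = 6.29e-11 and 3.77e-09).

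Of 11 genes of alternative activation 9 were lower and 1 higher, with a median of -0.70, and of 11 genes of classical activation 6 were lower and none higher, with a median of -0.18. Each list had 16 genes. Of the classical list, Tnf, Il6, Il12b, Nos2 and Ptgs2 were not tested, and of the alternative list, Chil4, Il10, Il1rn, Pdcd1lg2 and Cd209g. The medians therefore cover only a part of each list. Ccl24, an attractant of eosinophils, differed by -1.30 ± 0.13 and Irf1, an interferon-induced factor, by -0.65 ± 0.13. The gene that went the other way was Chil3, a chitinase-like protein that neutrophils also make (1.95 ± 0.23, limma, adjusted p = 2.41e-09). Of 26 genes of lysosomes and lipid handling 12 were lower and 8 higher, with a median of -0.20. Apoe, which carries lipid out of cells, differed by -2.12 ± 0.09, and Fabp5, a fatty acid carrier, by 1.97 ± 0.16. Both are expressed by adipocytes and other cells too.

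Markers of other cells were counted in the same way. Of 20 genes shared by all leukocytes 18 were lower in HF-DR than in HF-AL and none higher. The mean of that list ran from -0.73 to -0.31 in HF-DR, from -0.22 to 0.20 in HF-AL and from -0.28 to 0.34 in t0. Of 13 T and NK cell markers none was lower and 2 were higher, and of 5 B cell markers 4 were higher. The B cell mean ran from -0.58 to 1.02 in HF-DR and from -0.42 to 0.21 in HF-AL. Of 11 neutrophil markers listed, 5 were tested and 2 were higher, S100a8 (0.80 ± 0.10) and S100a9 (2.25 ± 0.18). Mpo (0.08 ± 0.04), Retnlg (0.23 ± 0.13) and Csf3r (0.00 ± 0.05) were not called. The mean of the 5 ran from -0.01 to 0.56 in HF-DR and from -0.51 to -0.11 in HF-AL.

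Of 8 dendritic cell markers, which bear on Itgax, 5 were lower and 1 higher, and the mean ran from -0.42 to -0.21 in HF-DR and from -0.10 to 0.10 in HF-AL. Of 13 markers of preadipocytes and fibroblasts 11 were lower and none higher, with a mean of -1.35 to -0.62 in HF-DR and 0.11 to 0.31 in HF-AL. Of 15 markers of mature adipocytes 8 were lower and 2 higher, and the mean ran from -0.17 to 0.41 in HF-AL. In HF-DR it was -1.12 for HF-DR 8 and -1.03 for HF-DR 9, and the other arrays lay between -0.19 and 0.15. The median of the fibroblast list was -0.91, that of the adipocyte list -0.34 and that of the endothelial list -0.21. Of 10 endothelial markers 5 were lower and 2 higher.

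Of 7 mast cell markers 4 were lower and 1 higher in HF-DR than in HF-AL, with a median of -0.34. The mean ran from -0.79 to -0.29 in HF-DR, from -0.27 to 0.52 in HF-AL and from -0.61 to -0.05 in t0. The mast cell protease Mcpt4 differed by -1.24 ± 0.08 and the carboxypeptidase Cpa3 by -1.12 ± 0.10 (limma, adjusted p = 4.50e-16 and 4.99e-12), while Kit, the receptor for stem cell factor, was higher (0.49 ± 0.12, adjusted p = 0.000656). Between HF-AL and t0, where 0.697% of all genes were called, 3 mast cell markers were higher and none lower, and these included Mcpt4 (0.53 ± 0.08, adjusted p = 0.000125) and Cpa3 (0.48 ± 0.10, adjusted p = 0.0141). Of 9 mesothelial markers 5 were lower and none higher in HF-DR than in HF-AL, with a median of -0.39, and the mean ran from -0.89 to 0.04 in HF-DR and from -0.54 to 0.38 in HF-AL. Msln, the surface protein mesothelin, differed by -1.32 ± 0.17 (adjusted p = 3.47e-08). The part of each of these cell types in the macrophage values was not tested.

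Of the promoter table, which spans 250 bases before to 50 after each annotated start, 27 of the 36 members matched in 32 windows. GAGGAA, on either strand, stood in 18 of these 32 windows (56.2%), against 28.3% of all 32851 windows. The letters CATGTG stood in 31.2% against 14.2%, and CACGTG in none (0 of 32) against 7.2%. The letters bound by STAT6, TTC and GAA with any 4 bases between them, stood in 18.8% against 7.0%. Some genes count with more than 1 window. No match of one motif shared a base with a match of another. In the windows printed above, GAGGAA starts at -196 from the start of Retnla, at -180, -167 and -35 in Mrc1 and at -40 in Trem2. The windows of Folr2, Cd163, Gpnmb and Itgax held no GAGGAA and were not printed. These shares describe letters in short windows and were not tested.

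Over the 12 HF-AL arrays, the 5 genes most like Mrc1 by Pearson's r among 15669 genes were Eya2, Txndc16, Dnajb4, Wfdc17 and C4a (r = 0.828 to 0.878). Those most like Gpnmb were Omd, Smoc1, Supt7l and 2 transcripts without a gene name, NAP058846-1 and TC1664123 (r = 0.831 to 0.855). Members were left out of this search. The genes named are the highest of 15669 correlations over 12 arrays, a choice that favours large r, and no relation was tested.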

How the data were processed

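Per the labels' protocols, total RNA from every animal was converted to cDNA, split and labelled with both dyes, and equal amounts of all Cy3 products formed the pool. Feature Extraction 9.5.3.1 is named in the submitters' processing notes. The intensity values used here are the deposited mean spot signals and median local backgrounds, per the file headers, linear and not normalised. The deposited series matrix holds log2 levels, and the sources used here do not say how the authors computed them. Both it and the deposited processed signals served as alternatives. Probe coordinates are on mm8 per the file headers.

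Background was corrected with normexp (limma 3.58.1 in R 4.3.3, offset 50) after leaving out 84 specks (net signal under -50), which broke the correction on 10 arrays. Ratios were normalised by loess within arrays (4 iterations). Probes well above background on at least 9 of 12 arrays of a group were kept, and of each gene the brightest. Probes were named by accession (24375), else by current symbol (6301), another accession (54) or synonym (2386). A further 8058 kept the name in the file, so the genes counted include transcripts without a gene name. The groups were compared in 1 limma fit over 36 arrays, with Benjamini-Hochberg adjustment over 16497 genes, two-sided. Correlations used 100000 permutations, or every possible ordering where n was 9. The fit was tested on simulated data. Every member is named, and of each other list the 2 changed genes with the smallest adjusted p and 1 in the other direction, of which a part is printed. A gene that this rule names is not reported here. The members and lists were chosen with earlier results of these data known. Alternatives were other backgrounds, scalings, filters, probe rules, blocks and sets of arrays. All arrays have 1 dye orientation, so dye effects were not measured. The promoter windows printed were chosen after the values were seen.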

Additional observations from a re-analysis of the deposited data

How the results depend on the processing

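No result reversed a call. Between HF-DR and HF-AL the markers that were lower numbered 25 to 28 in all alternatives, beside 27. Those that were higher, 1 in the reported fit, numbered 2 with array weights, with the slide as a block and without the arrays with tract transcripts (with or without t0 11), and 0 with specks kept and without the arrays with specks. Against t0, 27 or 28 were lower, and the higher ones, 0 as reported, numbered 2 with array weights, 1 with the slide as a block, 2 without the tract arrays and 1 when t0 11 was left out as well, an alternative chosen after seeing the data. Between HF-AL and t0, Itgax alone was called, with array weights (-0.32, adjusted p = 0.0294) and without the tract arrays and t0 11 (-0.39, adjusted p = 0.0328), so 1 marker in each.

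The resident-type median between HF-DR and HF-AL was -0.60 with the mean of a gene's probes in place of the brightest, and the lowest slide gave -1.18. Within slides it ran from -1.15 to -0.09 between HF-DR and t0 and from -0.53 to 0.54 between HF-AL and t0. The lipid-associated median on the highest slide was 0.17 for HF-DR against HF-AL and 0.55 for HF-AL against t0. On the lowest slide it was -1.07 for HF-DR against t0. The cause of these shifts was not tested. Of the 12 correlations, 2 passed as reported, 4 with the mean of probes, 0 without the 2 arrays farthest from the median and 0 without the tract arrays, an alternative chosen after seeing the data. Other probes of a member, also added then, kept the call in 13 of 16 cases between HF-DR and HF-AL.

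The reported fit did not pair samples by replicate number. After group means were subtracted, same-numbered arrays correlated above 0.1 in 9 of 12 pairs of HF-DR and HF-AL (median r = 0.21). They did so in 2 of 12 pairs of HF-AL and t0 (median 0.01) and 0 of 12 of HF-DR and t0 (median -0.07). The cause of the shared deviation of HF-DR and HF-AL was not tested. With the replicate block 27 markers were lower and 1 higher against HF-AL, and it changed no call of a member. Of all genes called between HF-AL and t0, 67.0% were higher as reported, 45.0% with processed signals, 43.7% with the series matrix, 83.5% with specks kept and 51.9% with array weights. The genes called there, 38 lower and 77 higher as reported, numbered 24 and 47 without a filter, 116 and 95 with processed signals, 86 and 111 without the tract arrays, 50 and 82 without t0 11 as well, and 382 and 413 with array weights. Among members not called against t0, Fcgr1 passed without the tract arrays (0.29) and with array weights (0.33), Msr1 under the same, with the slide as a block and without t0 11 as well (0.23 to 0.29), and Ms4a7 without the arrays with specks (-0.33). The offset of 50 in normexp compresses ratios of dim probes such as that of Cx3cr1.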
